A study of Mus musculus with 6 samples.

Results

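Macrophage-associated genes, 10 in all (C1qb, C1qc, Mrc1, Cd36, Axl, Spic, Gpr34, Adgre1, Vcam1 and Fn1), were followed in leukemia stem cells (LSCs) with and without the mechanosensitive channel Piezo1. They were picked by symbol, as 10 of the 55367 genes listed, after the difference between the groups had been seen, so their differences are given as description, with no p-value, and the counts of them past a threshold only restate that choice. RNA-seq covered 3 WT and 3 Piezo1cko libraries of LSCs sorted from leukemic bone marrow. WT mice were Piezo1 fl/fl and Piezo1cko mice Mx1-cre; Piezo1 fl/fl, and both groups received poly(I:C), which switches on the interferon-driven Mx1 promoter in blood-forming and other interferon-responsive cells. The donors were 8 to 10 weeks old. Their lineage-negative marrow was infected with a retrovirus carrying MLL-AF9 and YFP and transplanted into irradiated recipients, whose own marrow cells can persist. The LSC gate took lineage-negative, Sca-1-negative, c-Kit+, CD34+, Fc-gamma-receptor-high, YFP+ cells. No label ties the libraries to separate animals, so p-values below measure the spread between these libraries, which may be technical.

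Tissue macrophages clear dying cells and debris. They make complement C1q, which tags targets for uptake, and carry scavenger and lectin receptors such as Cd36 and Mrc1, TAM receptors such as Axl, and adhesion molecules such as Vcam1. In the marrow and spleen, macrophages that recycle iron from red cells depend on the transcription factor Spi-C, a relative of PU.1. Adgre1 encodes F4/80, a surface protein used to sort mouse macrophages, and it is also found on monocytes.

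Short stretches of promoter are shown for 4 of the genes, because the Ets factors PU.1 and Spi-C act on many macrophage promoters. Each is the 250 bases before the RefSeq start (GRCm38.p6), 5′ to 3′ on the gene's strand. The PU.1 box GAGGAA or its reverse complement TTCCTC is in capitals. The shorter Ets core GGAA was not marked or counted. The windows are chr4:136886201-136886450 (C1qb), chr7:25788734-25788983 (Axl), chr10:88683024-88683273 (Spic) and chr5:17835897-17836146 (Cd36), all on the minus strand and free of annotated exons.
C1qb: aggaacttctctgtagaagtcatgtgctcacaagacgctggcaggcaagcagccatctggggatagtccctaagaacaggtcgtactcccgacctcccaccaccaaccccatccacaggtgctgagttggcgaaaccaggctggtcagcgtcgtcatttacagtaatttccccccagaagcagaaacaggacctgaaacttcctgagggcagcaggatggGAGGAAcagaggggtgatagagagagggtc
Axl: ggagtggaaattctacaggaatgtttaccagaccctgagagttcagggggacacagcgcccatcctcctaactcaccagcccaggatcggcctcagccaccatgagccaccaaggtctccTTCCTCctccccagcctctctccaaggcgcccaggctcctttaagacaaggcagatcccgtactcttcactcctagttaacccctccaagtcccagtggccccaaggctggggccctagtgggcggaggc
Spic: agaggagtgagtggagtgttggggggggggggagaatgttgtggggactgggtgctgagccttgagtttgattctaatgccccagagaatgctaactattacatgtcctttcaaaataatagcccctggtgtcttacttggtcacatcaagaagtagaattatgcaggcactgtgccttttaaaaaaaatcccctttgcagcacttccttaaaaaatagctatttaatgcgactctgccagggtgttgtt
Cd36: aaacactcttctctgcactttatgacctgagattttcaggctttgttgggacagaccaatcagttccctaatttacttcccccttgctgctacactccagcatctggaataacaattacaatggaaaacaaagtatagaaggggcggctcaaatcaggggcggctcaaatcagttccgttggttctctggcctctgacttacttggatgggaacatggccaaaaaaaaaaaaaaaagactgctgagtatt
RefSeq windows were matched for 6 of the 10 genes. GAGGAA on either strand was found in 4 of the 6 (C1qb, C1qc, Mrc1 and Axl) and in 23.3% of all 32851 windows of this length. It began 30 bases before the start in C1qb and 130 in Axl. The hypoxia response core ACGTG, also read on both strands, was in 0 of the 6 and in 16.6% of all windows. The HIF1A motif that the paper names, GCGTR (R is A or G), was not searched. A match is a stretch of letters and not a shown binding site, and Spic and Cd36 have other annotated starts that these windows do not cover.

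The libraries held between 14112121 and 15483615 reads assigned to genes, recovered from the deposited log2 values. Reads of Piezo1, the targeted gene, numbered 104, 92 and 113 in the WT libraries and 35, 58 and 45 in the Piezo1cko libraries. The groups did not overlap, and Piezo1 reads were still present in every Piezo1cko library. WT replicate 2 held 2258 genes with a read in no other library, against 216 to 1547 in the other 5 libraries, and 6 of the 7 WT reads of the 6 genes at the WT floor described next. Without that library, C1qb, Cd36 and Spic had 0 reads in the remaining WT libraries.

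At the floor in WT libraries were 6 of the 10 genes, each having at most 3 reads in every WT library and more in every Piezo1cko library. These were C1qb, C1qc, Mrc1, Cd36, Spic and Gpr34. Of all 17352 genes with at least 10 reads in total, 3.86% had this pattern, and 3.88% had its mirror image. At a stricter floor of 10 reads, 3 of the 10 genes (C1qc, Cd36 and Gpr34) kept the pattern, which 2.24% of all genes had. With Fn1 added, the groups did not overlap in 7 of the 10 genes, all higher in Piezo1cko libraries, as in 33.2% of all genes, while 33.0% of all genes did not overlap in the lower direction. The 6 genes at the WT floor passed the minimum of 10 reads only through their Piezo1cko reads, since 4 of the 10 would have passed with WT libraries alone. Adgre1 and Vcam1 were well above the floor at close to the same level in both groups, Fn1 went from low to intermediate, and Axl was near the floor in both. In bulk libraries, fewer cells carrying a transcript and less of it per cell cannot be told apart.

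**Figure D1:**
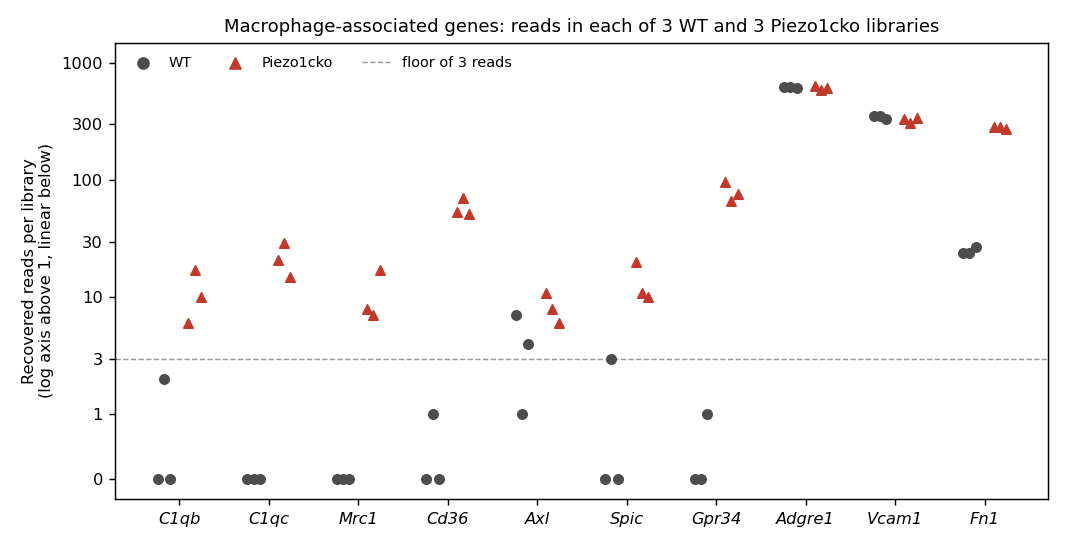
Recovered reads of the 10 genes (x axis) in each of the 3 WT (circles) and 3 Piezo1cko (triangles) libraries, on an axis that is logarithmic above 1 read and linear below; the dashed line is the floor of 3 reads. C1qb, C1qc, Mrc1, Cd36, Spic and Gpr34 have all WT points on or under the line and all Piezo1cko points above it, while the points of Adgre1, Vcam1 and Axl overlap.

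C1qb and C1qc encode the B and C chains of C1q, the first component of the classical complement pathway. C1qb (ENSMUSG00000036905, chr4:136880129-136886187, minus strand, GRCm38) had 0, 2 and 0 reads in WT replicates 1 to 3 and 6, 17 and 10 in Piezo1cko replicates 1 to 3. The groups did not overlap, and both WT reads lay in replicate 2. The ratio of reads summed over each group and scaled to library size was 17.03, with an exact 95% counting interval of 4.36 to 147. All ratios below were formed in this way. C1qc (chr4:136889804-136893065, minus strand), 3616 bases from C1qb, had 0 reads in each WT library and 21, 29 and 15 in the Piezo1cko libraries. Its Piezo1cko level was at least 7.42-fold higher than the WT libraries allow at a floor of 3 reads each. C1qa, which encodes the A chain that C1q also needs and lies 2851 bases beyond C1qc, had 0 reads in all 6 libraries, which allows up to 3 reads in each. The B and C chain genes were thus read in Piezo1cko libraries with no read of the A chain gene beside them. All intervals and floors cover counting error only, since reads carried no molecular identifiers.

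Mrc1, the mannose receptor CD206, and Cd36, a receptor for fatty acids, oxidized lipoproteins and apoptotic cells, were the scavenger-type genes. Mrc1 (chr2:14229392-14332057, plus strand) had 0 reads in each WT library and 8, 7 and 17 in the Piezo1cko libraries, at least 3.68-fold above the floor. Its highest library was Piezo1cko replicate 3, whereas C1qb, C1qc and Cd36 were highest in replicate 2. Cd36 (chr5:17781690-17888801, minus strand) had 0, 1 and 0 WT reads and 54, 71 and 52 Piezo1cko reads. Its normalized mean was 0.336 ± 0.583 in WT and 59.5 ± 8.58 in Piezo1cko libraries (SD, n = 3 each). The ratio of summed reads was 183, and with 1 WT read its exact counting interval ran from 32.4 to 7255. Every Piezo1cko library thus held 52 reads of Cd36 or more, and no WT library more than 1.

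Axl, a TAM receptor for phosphatidylserine bridged by Gas6, stayed near the floor. Axl (chr7:25757273-25788705, minus strand) had 7, 1 and 4 reads in WT and 11, 8 and 6 in Piezo1cko libraries. The groups overlapped, since WT replicate 1 exceeded Piezo1cko replicate 3. The ratio of summed reads was 2.15, with a counting interval of 1.04 to 4.70.

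Spic encodes Spi-C, the Ets factor of iron-recycling macrophages. Spic (chr10:88674772-88685015, minus strand) had 0, 3 and 0 reads in WT and 20, 11 and 10 in Piezo1cko libraries. All 3 WT reads came from replicate 2, and the ratio of summed reads was 14.1, with a counting interval of 4.50 to 71.2. Gpr34, a lysophosphatidylserine receptor typical of microglia and some tissue macrophages, had the most reads among the 6 genes at the WT floor. Gpr34 (chrX:13632089-13640858, plus strand) had 0, 0 and 1 WT reads and 96, 66 and 76 Piezo1cko reads. Its ratio of summed reads was 246, with a counting interval of 43.7 to 9742. Gpr34 lies inside Cask on the opposite strand without sharing exonic bases. Cask itself had 2551, 2335 and 2505 reads in WT and 2895, 3102 and 2962 in Piezo1cko libraries, a much smaller difference than that of Gpr34. Gpr82, the receptor gene beside Gpr34, was chosen for mention after its values were seen, and had 11, 3 and 7 reads in WT and 5, 0 and 2 in Piezo1cko libraries.

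Fn1, which encodes the matrix protein fibronectin, was the only gene of the 10 with clear reads in both groups and a large difference. Fn1 (chr1:71585520-71653200, minus strand) had 24, 24 and 27 reads in WT and 286, 283 and 275 in Piezo1cko libraries. The replicates lay close together and the groups far apart, at normalized means of 24.5 ± 1.37 and 285 ± 12.2 (SD, n = 3 each). The ratio of summed reads was 11.6, with a counting interval of 9.16 to 14.9. The limma-voom log2 fold change was 3.50 (SE 0.18). Apol7d, an antisense gene that shares 292 exonic bases with Fn1, had 0 reads in WT and 3, 2 and 1 in Piezo1cko libraries, and without strand its reads cannot be told from those of Fn1.

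Adgre1 and Vcam1 showed no such difference. Adgre1 (chr17:57358691-57483527, plus strand) had 629, 624 and 615 reads in WT and 642, 594 and 617 in Piezo1cko libraries. Its groups overlapped, and the ratio of summed reads was 1.02, with a counting interval of 0.960 to 1.09. Vcam1 (chr3:116109949-116129688, minus strand), a ligand of the integrin pair Itga4 and Itgb1, had 357, 353 and 332 reads in WT and 335, 310 and 341 in Piezo1cko libraries. Its groups overlapped as well, with a ratio of 0.977 and a counting interval of 0.894 to 1.07. Leaving out each library in turn moved the deposited log2 difference between -0.01 and 0.05 for Adgre1 and between -0.04 and 0.02 for Vcam1, so neither direction is fixed. Gm43109, antisense to Vcam1 over 61 exonic bases, had at most 2 reads in any library.

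Levels between genes were compared per length, as reads scaled to library size and to the length of the longest annotated transcript (RPKM). Adgre1 stood at 12.6 ± 0.403 RPKM in WT and 13.1 ± 0.949 in Piezo1cko libraries, at percentile 71.6 and 72.2 of 16932 genes with a length. Vcam1 followed at 5.59 ± 0.313 and 5.53 ± 0.442 RPKM. These levels are below those of Kit, the stem cell factor receptor of the sort (32.3 ± 0.774 and 44.4 ± 1.08 RPKM), and of Csf1r, the M-CSF receptor (19.6 ± 0.941 and 19.1 ± 1.08 RPKM). Cd34, another marker of the sort, stood higher still (81.5 ± 1.12 and 128.5 ± 3.46 RPKM). Among the 10 genes, Adgre1 was thus nearest to the level of these reference genes in both groups, and Vcam1 came next. Of the reference genes, Csf1r is also counted below as a core macrophage marker.

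The other 8 genes were lower. In Piezo1cko libraries Gpr34 reached 2.62 ± 0.589 RPKM (percentile 48.1) and Fn1 2.33 ± 0.0973 (percentile 46.3), values that overlap within their spread. C1qc at 1.23 ± 0.367 RPKM and Cd36 at 1.19 ± 0.172 also did not separate, and lay near percentile 37. Next came C1qb at 0.687 ± 0.325 and Spic at 0.413 ± 0.178 RPKM, again within each other's spread. Mrc1 at 0.137 ± 0.0716 and Axl at 0.135 ± 0.0437 RPKM were lowest, near percentile 12. In WT libraries all 8 were below 0.2 RPKM, with Fn1 the highest at 0.198 ± 0.0113 (percentile 16.2). Even in Piezo1cko libraries, then, all 8 lay far below Kit and Csf1r. With the mean in place of the longest transcript length, Adgre1 read 25.5 and 26.5 RPKM, Vcam1, whose longest transcript has a single exon, 8.43 and 8.35, Fn1 0.402 and 4.74, and Axl 0.154 and 0.339, in WT and Piezo1cko libraries respectively. On that length Csf1r read 45.1 and 43.9 RPKM and Kit 71.3 and 98.1, so Adgre1 stayed below both. Fn1 then exceeded Gpr34, at 2.75 RPKM in Piezo1cko libraries, and Axl exceeded Mrc1, at 0.198.

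**Figure D2:**
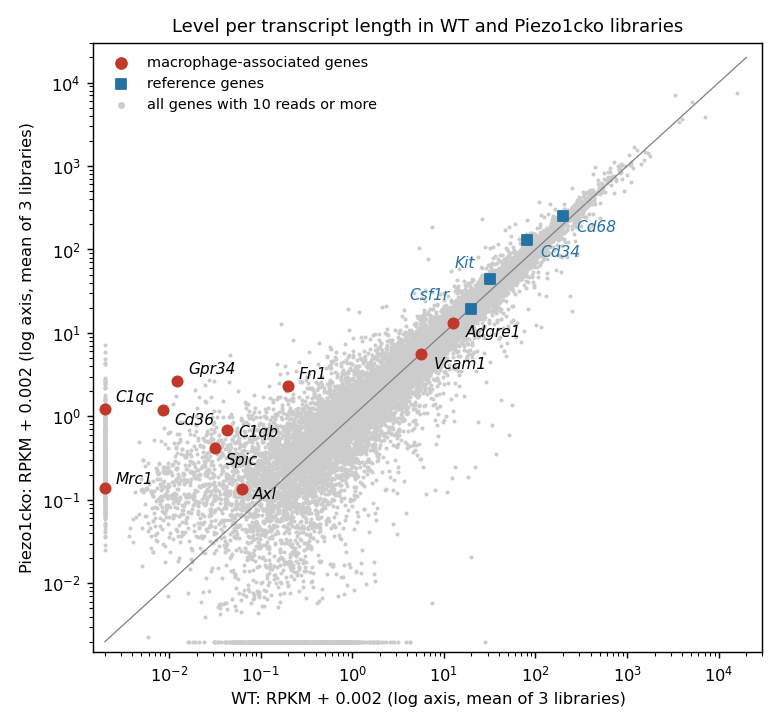
Mean RPKM over 3 libraries, with 0.002 added, in WT (x axis) and Piezo1cko (y axis), both logarithmic, for every gene with at least 10 reads in total and an annotated length (grey), the 10 macrophage-associated genes (red circles) and 4 reference genes (blue squares); the line marks equality. Adgre1 and Vcam1 lie on the line below Csf1r and Kit, and C1qc and Mrc1 lie at the left edge, where WT libraries have no read.

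The deposited values hide most of these differences. They are log2 values that the transform pulled in to the average of each gene, so that a gene without a read still has a value. C1qc, with 0 reads in each WT library, was listed at 3.28 in all of them, above Axl with 1 to 7 reads, listed between 2.57 and 2.62. On that scale the difference between groups was 0.17 (SE 0.02) for C1qc, 0.43 (SE 0.03) for Cd36, 0.56 (SE 0.04) for Gpr34 and 1.19 (SE 0.04) for Fn1. C1qb, Mrc1 and Spic differed by 0.08 to 0.10 and Axl by 0.03. A differentially expressed gene (DEG) had to have a limma adjusted p under 0.05 and to differ by more than 1 in log2 fold change. Fn1 alone lay past both thresholds, as did 0.257% of the 16746 genes tested in the higher direction and 0.818% in either. With the adjusted p as the only threshold, 7 of the 10 lay past it, all higher, where 31.6% of all genes did. With limma-voom on recovered reads, 7 of the 10 lay past both in the higher direction, where 12.6% of 17352 genes did. These counts are no test of the genes, which were chosen on this difference and of which 6 passed the read minimum only through Piezo1cko libraries. The median log2 difference of the 10 was 0.09 on the deposited scale and 3.78 in recovered reads, beside 0.00 and -0.01 over all genes tested.

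**Figure D3:**
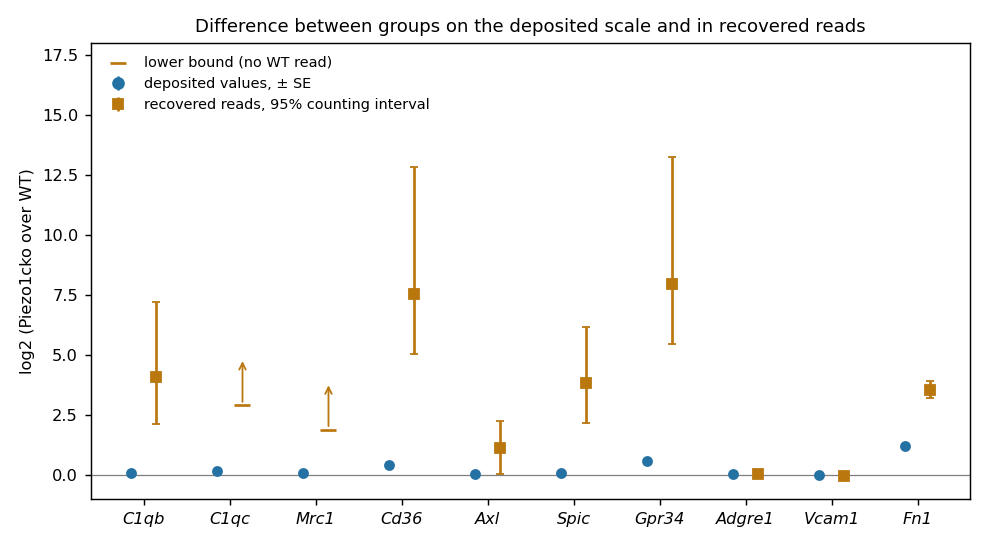
log2 of Piezo1cko over WT (y axis) for the 10 genes (x axis): deposited values with their SE (blue circles), and recovered reads with exact 95% counting intervals (orange squares) or, where WT had no read, the lower bound set by 3 reads per library (dashes with arrows). Gpr34 moves from 0.56 on the deposited scale to a 246-fold ratio in reads, while Adgre1 and Vcam1 sit at 0 on both.

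Other genes of the same pathways, 99 in 7 lists, moved in both directions. On the deposited scale 1 of 77 tested was a higher DEG, Gpnmb, and 3 were lower, C3, Cebpb and Sdc4, where 0.257% and 0.561% of all genes were. With recovered reads, 15 of 78 were higher and 17 lower DEGs, where 12.6% and 12.3% of all genes were, and the median log2 fold change was 0.03. By adjusted p alone, 34 of the 78 were higher and 24 lower in recovered reads, where 30.7% and 32.3% of all genes were. The p-values that follow are adjusted over all genes in the limma-voom fit. Of the genes with reads given, Colec12, Msr1, Siglech, Itgax and Itgad passed the 10-read minimum only through Piezo1cko reads. C1s1, Gas6 and Pparg passed it only through WT reads. The p-values and calls of these genes therefore describe them and are no independent support.

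In the complement list, which had 2 higher and 5 lower DEGs among 13 tested, the genes that fell included C3, the central component, with 561, 575 and 554 reads in WT and 129, 123 and 123 in Piezo1cko libraries (log2 fold change -2.14, SE 0.09, adjusted p = 2.82e-11). C1ra and C1s1, the proteases that bind C1q, fell too, C1ra from 52, 50 and 74 reads to 5, 9 and 6 (adjusted p = 2.27e-06) and C1s1 from 6, 4 and 10 to 0 in each (adjusted p = 0.000119). Itgax, a chain of complement receptor CR4, had 0 reads in each WT library and 4, 6 and 2 in the Piezo1cko libraries. The last is under the floor, and Itgax passed the 10-read minimum only through Piezo1cko reads. The C1q-binding proteases and the C1q chains were thus higher in opposite groups.

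In the scavenger and lectin receptor list, 4 of 10 genes tested were higher DEGs and 0 lower at the DEG thresholds, and at an adjusted p under 0.05 alone 6 were higher and 1 lower, beside 30.7% and 32.3% of all genes. Colec12, a scavenger receptor collectin, had 1, 0 and 0 reads in WT and 60, 68 and 46 in Piezo1cko libraries (adjusted p = 4.14e-07). Cd163, the haemoglobin-haptoglobin receptor, rose from 26, 21 and 17 to 112, 102 and 114 (log2 fold change 2.38, SE 0.22, adjusted p = 1.88e-07). Clec10a rose from 86, 84 and 71 reads to 181, 176 and 161, and Msr1, scavenger receptor A, from 0, 0 and 1 to 6, 5 and 3, close to the floor.

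The tissue macrophage and microglia list had 5 higher and 1 lower DEG among 10 tested. Gpnmb, a glycoprotein of lysosome-rich macrophages, rose from 77, 63 and 69 reads to 495, 494 and 466 (log2 fold change 2.83, SE 0.12, adjusted p = 2.1e-11). Lpl, lipoprotein lipase, rose from 34, 37 and 59 to 137, 155 and 125 (adjusted p = 1.07e-06), and Siglech from 0, 1 and 0 to 8, 6 and 9 (adjusted p = 0.000199). P2ry12, Sall1, Folr2, Lyve1, Clec4f and Vsig4, defining genes of microglia, Kupffer cells or perivascular macrophages, had 0 reads in all 6 libraries. In the red pulp and erythroblastic island list, 2 of 14 were higher (Cd163 and Treml4) and 2 lower (Klf1 and Epor). Klf1 and Epor are also in the list of erythroid markers below.

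In the engulfment list, 1 of 11 genes tested was higher and 2 were lower DEGs. Gas6, the ligand of Axl, fell from 14, 5 and 9 reads to 0 in each Piezo1cko library (adjusted p = 5.52e-05), while the Axl reads of both groups overlapped. Dock1, an exchange factor for Rac in engulfment, fell from 47, 57 and 62 to 8, 10 and 10 (adjusted p = 2.95e-06), while Itgb3 rose from 143, 137 and 114 to 341, 379 and 380 (adjusted p = 5.46e-09). Mertk, the TAM receptor most typical of macrophages, had 0 reads in WT and 4, 2 and 3 in Piezo1cko libraries and did not reach the 10-read minimum.

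Of 16 macrophage transcription factors tested, 2 were higher and 3 lower DEGs. Cebpb fell from 976, 932 and 999 reads to 31, 36 and 35 (log2 fold change -4.78, SE 0.15, adjusted p = 4.87e-13). Pparg, a lipid-sensing nuclear receptor that drives Cd36 in macrophages, fell from 40, 36 and 44 reads to 1, 0 and 0 (adjusted p = 5.35e-07). Whether Pparg acted on Cd36 in these cells was not tested. Klf4 and Cebpa, monocytic and granulocytic factors, rose, with log2 fold changes of 1.25 (SE 0.17) and 1.19 (SE 0.09).

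Among 11 receptors for Vcam1 and Fn1, 2 were higher and 4 lower DEGs. Sdc4, a fibronectin-binding syndecan, fell from 434, 447 and 458 reads to 45, 64 and 64 (adjusted p = 6.62e-11), and Tgm2 from 29, 31 and 28 to 2, 5 and 7. Itgad, an integrin chain that binds Vcam1, rose from 0, 1 and 8 to 5, 13 and 17 with groups that overlap, and Itgb3 also counts here. Both integrin alpha chains that follow were named after their values were seen. Itga5, of the fibronectin receptor, fell from 2355, 2540 and 2570 reads to 1060, 1132 and 1127 (log2 fold change -1.14, SE 0.05, adjusted p = 2.55e-11). Itga4, of the Vcam1 receptor, had 808, 725 and 792 reads in WT and 1339, 1265 and 1253 in Piezo1cko libraries (log2 fold change 0.76, SE 0.05, adjusted p = 1.31e-08), and its partner Itgb1 had a log2 fold change of -0.01 (SE 0.05).

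**Figure D4:**
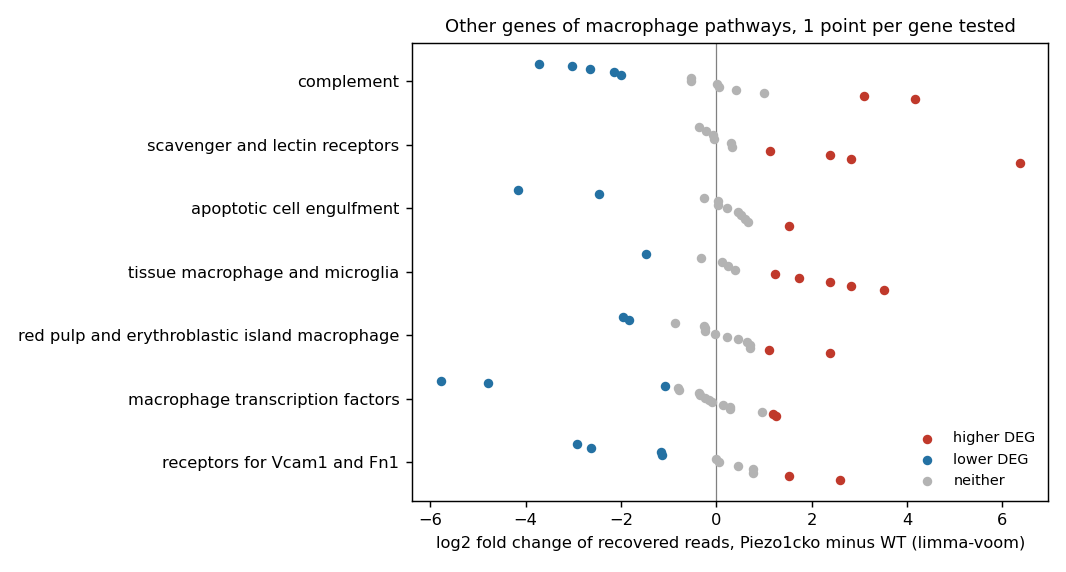
log2 fold change of recovered reads, Piezo1cko minus WT, from limma-voom (x axis) for each gene tested in 7 pathway lists (rows), leaving out the 10 macrophage-associated genes; red points are higher DEGs, blue lower DEGs and grey neither, and a gene in several lists appears in each. All lists but that of scavenger and lectin receptors, with 4 higher and 0 lower, hold DEGs in both directions.

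Of 25 core macrophage markers tested with recovered reads, 3 were higher and 3 lower DEGs, close to the shares of all genes (12.6% and 12.3%). By adjusted p alone 13 were higher and 7 lower, where 30.7% and 32.3% of all genes were. Their median log2 fold change was 0.12. The summed normalized reads of the list ran from 66380 to 67070 in WT and from 61340 to 62620 in Piezo1cko libraries. Cd14 counts in this sum, and its own fall, given below, was larger than that of the sum. Fcgr1, the macrophage Fc receptor CD64, had 0 reads in all 6 libraries. Csf1r had a log2 fold change of -0.07 (SE 0.05, adjusted p = 0.251), and Cd68, a lysosomal protein abundant in both groups, 0.30 (SE 0.03, adjusted p = 7.4e-07). Cd14 fell from 6118, 6083 and 6703 reads to 405, 503 and 410 (adjusted p = 6.11e-16), while Aif1, a higher DEG, had a log2 fold change of 1.63. The part that other cells among the sorted LSCs had in the C1qb, C1qc, Mrc1, Cd36, Spic and Gpr34 reads was not tested.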

How the data were processed

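Libraries were made from sorted LSCs with an oligo-dT, Smart-seq2-type kit that does not mark strand and sequenced as paired ends. The authors trimmed reads with fastp 0.20.1, aligned them to GRCm38 with HISAT2 2.2.1, counted them with featureCounts 2.0.1 and normalized them with DESeq2 1.28.1. The deposited table holds log2 values, 1 column per library. They have the form of a regularized log, a transform that the sources used here do not name, with 28965 of 55367 genes at 0 in all libraries.

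From the deposited log2 values the transform was undone to recover reads. Among genes averaging 1 read or more, 92.7% of values came out within 0.1 of a whole number, and transforming the rounded reads again returned 99.4% of deposited values within 0.0001. On simulated data 99.4% of reads were recovered exactly. Main test: limma 3.58.1 (R 4.3.3) with a trend on deposited values of genes averaging 1 or more, all 6 libraries, no covariates, Benjamini-Hochberg adjustment. Recovered reads (at least 10 in total) were tested with limma-voom and TMM scaling. On simulated data, the main test called 116 of 200 changed genes as DEGs, with 0 false calls, and the test of recovered reads 200, with 1 false call. The changed genes were drawn from genes well above the floor, so these counts do not cover genes near it. Normalized reads are divided by the recovered size factors. Gene positions and lengths are from GENCODE M21. Between libraries of a group, the mean chi-square per gene ran from 1.57 to 2.96, above that of sampling noise alone. The excess was smaller among genes with fewer reads (1.38 to 1.54), and no p-value was computed.

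The 10 genes and all lists were chosen with earlier results of these data known. Named genes are the 10, C1qa, Piezo1, the reference genes (Csf1r, Mertk, Fcgr1, Cd68, Kit, Cd34), for each list at most 4 further DEGs with the largest fold change in recovered reads, and genes without reads. Others are marked in the text, and some genes that the rule names are not reported here. Alternatives were the low-value filter, library scaling, a replicate block, leaving out each library, the fold threshold, transcript length and the floor.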

Additional observations from a re-analysis of the deposited data

How the results depend on the processing

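Under the alternatives, counts of DEGs and of genes at the floor stayed within 1.5 times the reported one in 56 cases and left that range in 12, which follow. DEGs over all genes numbered 137 on the deposited scale, 4317 in recovered reads with TMM, 4333 with library totals and 10556 with no fold change threshold. DEGs of the pathway lists went from 1 higher and 3 lower to 15 and 17 with TMM and 16 and 17 with library totals. DEGs of the marker lists went from 3 higher and 7 lower to 21 and 21 with TMM and 23 and 21 with library totals. The deposited scale draws low genes towards their mean by construction. At a floor of 10 reads, 3 of the 10 genes (C1qc, Cd36 and Gpr34) were at the floor in WT and above it in every Piezo1cko library, as were 2.24% of all genes, against 6 at a floor of 3.

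Leaving out each library in turn gave 134 to 144 DEGs over all genes, 1 to 1 higher and 3 to 3 lower in the pathway lists, 3 to 3 higher and 5 to 7 lower in the marker lists, and 6 to 6 genes at the WT floor. In recovered reads, the same 7 of the 10 genes (C1qb, C1qc, Mrc1, Spic, Cd36, Gpr34 and Fn1) lay past the DEG thresholds whichever library was left out, with Axl as well without WT replicate 1. Without WT replicate 2, C1qb, Cd36 and Spic had 0 WT reads. No label says whether equal replicate numbers mark pairs, and the main test did not pair them. Deviations from the group mean correlated at 0.24, 0.20 and 0.09 between same-numbered libraries, each the best match of its number. Pairing by number is therefore not excluded. With a replicate block there were 137 DEGs (4356 in recovered reads). At these depths, the libraries do not tell a gene without reads from a gene with up to 3.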

Other observations

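Markers of other blood cells gave these values in recovered reads (limma-voom, p adjusted over all genes). Of all genes, 12.6% were higher and 12.3% lower DEGs, and 30.7% and 32.3% were higher and lower by adjusted p alone. Of the markers with reads given, Cma1 and Clec9a passed the 10-read minimum only through Piezo1cko reads, and Ccr7 and Ppbp only through WT reads. Their p-values and calls are thus description only. Of 6 mast cell and basophil markers, 3 were higher DEGs and 0 lower (by adjusted p alone, 5 and 0): Cpa3, a mast cell carboxypeptidase, rose from 587, 528 and 617 reads to 4990, 4990 and 4846 (adjusted p = 6.11e-16), and Cma1, a chymase, from 0 reads to 23, 20 and 17 (adjusted p = 9.16e-07). The summed normalized reads of that list were 1999 to 2107 in WT and 7683 to 7908 in Piezo1cko libraries. Of 11 dendritic cell markers tested, 7 were higher and 2 lower, with Clec9a at 2, 3 and 1 against 8, 24 and 14 reads (adjusted p = 0.000734) and Ccr7 at 28, 26 and 29 against 0 in each (adjusted p = 2.45e-07). Of 10 monocyte markers, 2 were higher and 1 lower, near the shares of all genes, the last being Chil3, at 4706, 4289 and 4444 against 1234, 1214 and 1175 reads.

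Of 7 neutrophil markers, 1 was higher (Mmp8) and 5 were lower, among them S100a9, which fell from 284, 252 and 265 reads to 8, 6 and 4 (adjusted p = 1.19e-09). Of 7 erythroid and 7 megakaryocyte markers, 4 and 4 were lower and 0 and 1 higher. Ppbp, a platelet chemokine, fell from 44, 57 and 54 reads to 0 in each library (adjusted p = 9.01e-08). Of 11 LSC markers, 0 were higher and 1 lower DEG, Elane (by adjusted p alone, 2 higher and 6 lower). The summed normalized reads of the LSC list fell from between 544700 and 585800 in WT to between 293500 and 315500 in Piezo1cko libraries. That list also holds the granule genes Mpo, Elane, Prtn3 and Ctsg, so its sum does not follow the sort markers. Kit and Cd34, a small part of the sum, were the 2 higher genes by adjusted p alone. Their normalized means were 2522 and 3721 in WT and 3425 and 5796 in Piezo1cko libraries. The stromal list had 2 higher among 2 tested, Pdgfrb and Cxcl12, with Col1a2, Col3a1, Kitl and Adipoq at 0 reads in all 6 libraries. Endothelial markers had 0 DEGs of 3 tested in either direction (1 higher by adjusted p alone), B cell markers 1 higher of 3, and T cell markers 1 higher and 1 lower of 2.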
